A study of Caenorhabditis elegans with 15 samples.

Results

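The 8 protein-coding genes lin-14, lin-28, hbl-1, lin-46, lin-41, lin-29, dre-1 and lep-2 belong to the heterochronic pathway, which sets the timing of larval development in *Caenorhabditis elegans*. They were chosen by name, and all 8 were found among the 46926 genes of the deposited table through the gene symbols of the WBcel235 annotation. Transcripts were measured by polyA RNA-seq in whole L4 larvae, the last larval stage before the adult, in 15 libraries. The wild-type group held 6 libraries of strain N2. The 3 mutant groups, of 3 libraries each, are e398 (labelled mec-8 (e398) KO), u74 (labelled u74 KO) and u218 (labelled u218 KO). All groups carry the strain label N2, the labels name no gene for u74 and u218, and they give no age in hours, number of animals or treatment. MEC-8 is an RNA-binding protein that regulates alternative splicing, and the values used here are sums per gene that do not separate splice forms.

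Heterochronic genes give cells of the larva their stage identity. LIN-14, LIN-28 and HBL-1 hold early programs, and microRNAs of the lin-4 and let-7 families lower them as the larva matures, largely through sites in 3′ untranslated regions (UTRs). LIN-41 is repressed by let-7 and in turn represses LIN-29, a zinc-finger transcription factor that starts the larval-to-adult switch of the seam cells, the lateral epidermal stem cells. Several of these genes also act outside the epidermis, and LIN-41 is required in developing oocytes.

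The table holds 1 value per gene and genotype, the average over the libraries of normalized counts, which are read counts divided by a size factor for each library. An average carries no replicate error, so ratios of averages are described as higher or lower and were not tested. Ratios are on the scale log2((average + 1)/(average + 1)), among genes averaging at least 20 normalized counts in either group, and were counted from 2-fold. The size factors, read back from the averages, spanned 0.471 to 1.82 for wild type, 0.476 to 0.685 for e398, 1.46 to 1.95 for u74 and 0.831 to 1.99 for u218. Those of wild type fell into a high set (1.82, 1.75 and 1.59) and a low set (0.531, 0.489 and 0.471). The low set lay near the e398 factors and the high set near those of u74 and most u218 libraries. Size factor and genotype thus cannot be fully told apart, and the part of size factor in the ratios was not tested. For low averages of the mutant columns the whole reads of each library could be recovered, and the libraries are numbered by falling size factor. Among recovered genes averaging at least 20 normalized counts, e398 library 2 lay at least 4-fold above or below both others for 13.8% of 8493. In u218, library 3 did so for 29.4% of 5876. The mec-8 averages were 1956 normalized counts in wild type, with e398 at 1070, u74 at 2239 and u218 at 3620, and a gene sum checks no allele that leaves the transcript in place. Markers of muscle, intestine, neurons, epidermis and germline were above 0 in every column.

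The early factor lin-14, on chromosome X from 11465560 to 11485871 on the plus strand, encodes a nuclear protein that specifies the earliest larval fates and is the classic target of the lin-4 microRNA. Its exons cover 3665 bp, with a longest annotated 3′ UTR of 1604 bp. It averaged 1723 normalized counts in wild type, with e398 at 567, u74 at 2936 and u218 at 4764. The e398 average was thus 0.329 times that of wild type and the u218 average 2.76 times. In whole animals, a change in the number of cells of a type and a change in RNA per cell cannot be told apart. The 3 e398 libraries held 367, 825 and 509 normalized counts (567 ± 234, SD, n = 3), from 251, 502 and 242 reads. An e398 average this low leaves no room for a single library above the averages of the other 3 genotypes, so that position says nothing on the spread.

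The RNA-binding protein LIN-28, which blocks maturation of let-7, is encoded by lin-28 on chromosome I (8407630 to 8410804, minus strand, 1453 bp of exons, longest 3′ UTR 531 bp). Its averages were 983 normalized counts in wild type, with e398 at 163, u74 at 1880.4 and u218 at 1108. The e398 libraries held 129, 243 and 118 normalized counts (163 ± 69.5, SD, n = 3), from 88, 148 and 56 reads. The log2 ratio of e398 to wild type was -2.58. In u74 the ratio was 0.93, just inside the 2-fold limit, and it passed the limit at 1.12 when the columns were scaled by TMM factors (trimmed mean of M-values). The exons share 16 bp with F02E9.1 on the opposite strand, whose averages of 1638, 1501, 1163 and 1248 followed the order wild type, e398, u74, u218.

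The Ikaros-family zinc-finger factor HBL-1 holds back later fates and is a target of let-7 family microRNAs. Its gene, hbl-1 on chromosome X (5822142 to 5827755, plus strand), has 4478 bp of exons, a longest 3′ UTR of 1394 bp and no overlapping gene. It averaged 1508 normalized counts in wild type, with e398 at 2015, u74 at 508 and u218 at 1834. The u74 average stood apart from the other 3, at 0.338 times wild type. In whole reads, 2 solutions fit the u74 average, with libraries at 390, 128 and 1007 or at 531, 577 and 418 normalized counts. The u74 average itself leaves almost no room for a library above the wild-type average of hbl-1, and which solution holds is not known.

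The gephyrin-like protein LIN-46 acts downstream of LIN-28 and opposes HBL-1. The gene lin-46, on chromosome V from 12968855 to 12970730 on the plus strand, has 1365 bp of exons and was the member with the lowest wild-type average. It averaged 212 normalized counts in wild type, with e398 at 231, u74 at 126 and u218 at 742, the highest at 3.49 times wild type. The e398 libraries were far apart at 70.1, 470 and 154 normalized counts (231 ± 211, SD, n = 3), and the u74 libraries close together at 118.6, 153 and 106 (126 ± 24.1, SD, n = 3). Without e398 library 2, the e398 average was 112 and the log2 ratio to wild type went from 0.12 to -0.92. For u218, 3 whole-read solutions fit the average, at 38.7, 1092 and 1096, at 793, 782 and 651, or at 1547, 472 and 207 normalized counts, so the spread behind that highest average is not known.

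The late regulator lin-41 encodes a TRIM-NHL RNA-binding protein that represses lin-29 and other messages. It lies on chromosome I from 9334800 to 9342496 on the minus strand, 98.5 kb from mec-8. On the same chromosome, lin-28 lies 1030 kb from mec-8. No gene overlaps the 4810 bp of lin-41 exons, with a longest 3′ UTR of 1165 bp. The gene lin-41 averaged 5174 normalized counts in wild type, with e398 at 751, u74 at 13407.5 and u218 at 6984. The e398 libraries held 551, 1375 and 328 normalized counts (751 ± 552, SD, n = 3), from 377, 837 and 156 reads. The log2 ratio of the e398 average to wild type was -2.78, or -3.55 without e398 library 2. In u74 the ratio to wild type was 1.37, so that lin-41 differed 17.8-fold between u74 and e398, or 30.5-fold without e398 library 2.

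The switch factor lin-29, on chromosome II from 11917642 to 11935343 on the minus strand, has 2304 bp of exons and shares 2 bp with hmg-12 on the opposite strand. Its averages were 5222 normalized counts in wild type, with e398 at 5744, u74 at 1468 and u218 at 3144. Wild type and e398 were nearly equal at 1.10 times, whereas u74 stood at 0.281 times and u218 at 0.602 times wild type. No lin-29 average was low enough to be resolved into libraries.

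The F-box protein DRE-1 is the substrate receptor of an SCF ubiquitin ligase that removes the transcription factor BLMP-1. Its gene, dre-1 on chromosome V (6533614 to 6546500, minus strand, 3454 bp of exons), was the most abundant member in wild type, with averages of 10941 normalized counts in wild type, with e398 at 14982, u74 at 4807 and u218 at 12578.5. The u74 average was 0.439 times wild type, and the other mutants were within 2-fold of it. The Makorin protein LEP-2 promotes the larval-to-adult change of the male tail tip, where it acts against LIN-28. The lep-2 gene, on chromosome IV from 992283 to 997644 on the plus strand with 1367 bp of exons, averaged 952 normalized counts in wild type, with e398 at 173, u74 at 1687 and u218 at 1425. Its e398 libraries held 150, 182 and 187 normalized counts (173 ± 19.96, SD, n = 3), the tightest of the 5 members resolved in e398. The e398 average was 0.183 times wild type.

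**Figure D1:**
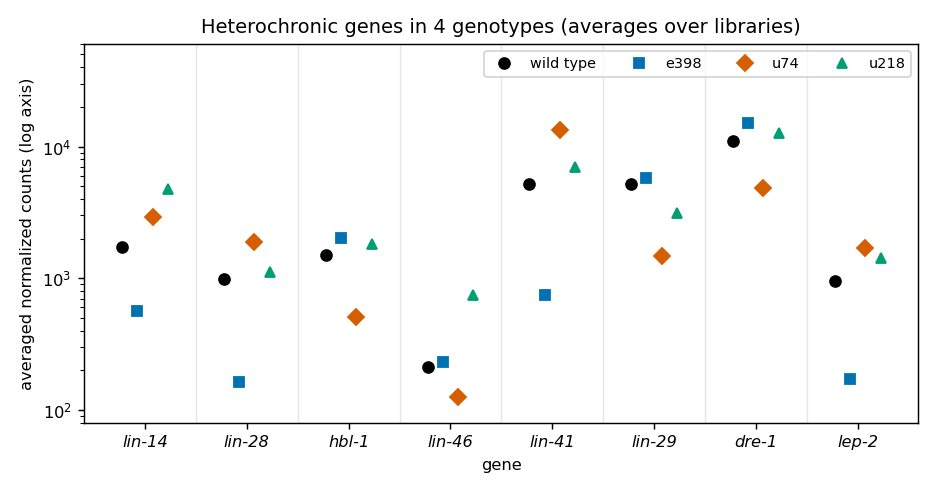
Averaged normalized counts (log axis) of the 8 heterochronic genes in wild type, e398, u74 and u218, 1 point per genotype average. The e398 point is the lowest for lin-14, lin-28, lin-41 and lep-2, while the u74 point is the lowest for hbl-1, lin-46, lin-29 and dre-1.

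The plot of averages shows the same genotype order for several members. In e398, lin-14, lin-28, lin-41 and lep-2 had the lowest of the 4 averages, and in u74, hbl-1, lin-46, lin-29 and dre-1 did.

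**Figure D2:**
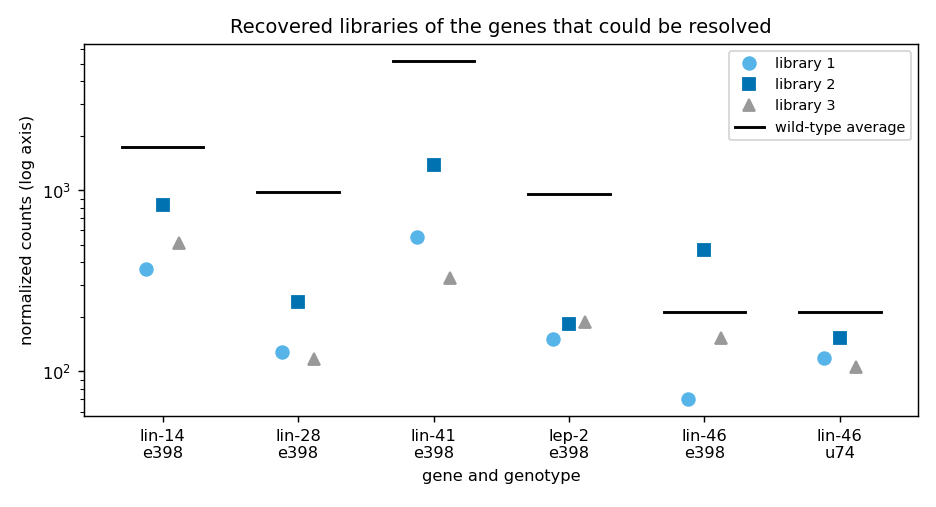
Normalized counts (log axis) of the 3 recovered libraries of lin-14, lin-28, lin-41 and lep-2 in e398 and of lin-46 in e398 and u74, 1 point per library, with the wild-type average as a line. The e398 points of lin-14, lin-28, lin-41 and lep-2 lie below the wild-type line, as e398 averages this low require. Those of lin-46 in e398 lie on both sides of it.

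In e398 against wild type, 4 of the 8 members were at least 2-fold lower and none was 2-fold higher, where 31.3% of the 17398 genes considered passed 2-fold, 19.9% lower and 11.4% higher. The 4 lower members were lin-14, lin-28, lin-41 and lep-2, with log2 ratios from -2.78 to -1.60. Leaving out a single e398 library could not bring any of them within 2-fold, whatever their spread, so it is no check of that spread. The other 4 members lay between 0.12 and 0.45. The median over the members was -0.74, beside -0.05 over all genes considered. Shorter transcripts were lower in e398 more often: among protein-coding genes with less than 1000 bp of exons, 33.9% were at least 2-fold lower, and 7.40% of those with 4000 bp or more. Of the 4 lower members, lin-28 and lep-2 fall in the group of 1000 to 2000 bp, where 15.6% were lower, lin-14 in that of 2000 to 4000 bp with 12.0%, and lin-41 in the longest. Summed oocyte markers (12 genes) were 115558 normalized counts in wild type and 38178 in e398, with 9 of 12 at least 2-fold lower, and their part in the lower members was not tested.

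In u74 against wild type, 1 of 8 members was at least 2-fold higher and 3 were lower, where 35.5% of 17004 genes passed 2-fold, 6.47% higher and 29.0% lower. The higher member was lin-41, and hbl-1, lin-29 and dre-1 were the lower ones, at log2 ratios of -1.57, -1.83 and -1.19. At 1.37, lin-41 lay above 97.8% of all genes considered. The members lin-14, lin-28 and lep-2 were higher by 0.77 to 0.93 on the log2 scale, and lin-46 was at -0.75. With TMM factors 11.7% of all genes were higher and 26.5% lower, and lin-28 and lep-2 (1.01) passed the 2-fold limit too. With equal column totals the split was reversed to 4 higher and 1 lower: hbl-1 (-0.94) and dre-1 (-0.56) came within 2-fold, lin-14 (1.39), lin-28 (1.56) and lep-2 (1.45) were beyond it, and 31.6% of all genes were higher and 20.5% lower. Summed oocyte markers were at 325647 normalized counts in u74, with all 12 at least 2-fold higher than wild type, and summed larval moult markers (6 genes) at 31130 against 314130 in wild type, with 5 of 6 lower. Their part in the members' ratios was not tested.

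In u218 against wild type, 2 of 8 members, lin-14 at 1.47 and lin-46 at 1.80, were at least 2-fold higher and none was lower, where 46.3% of 17087 genes passed 2-fold, 10.4% higher and 35.8% lower. The median of all ratios was -0.26, and that of the members 0.36. The ratios of lin-14 and lin-46 lay above 96.1% and 98.3% of all genes. The remaining members ran from -0.73 for lin-29 to 0.58 for lep-2. With TMM factors 18.6% of genes were higher and 31.5% lower, and the same members passed. Oocyte markers summed to 13387 normalized counts in u218, the lowest of the 4 genotypes, and sperm markers (10 genes) to 690, against 46464 in wild type. The 3 u218 libraries held 123, 135 and 1812 normalized counts of the sperm markers, and the mean without library 3 was 129. All 12 oocyte markers and 1 of 7 germline markers were at least 2-fold lower than wild type. The ratios of lin-41 and lin-28 were 0.43 and 0.17, and the part of the germline in the members' ratios was not tested. The 3 comparisons with wild type share that group.

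**Figure D3:**
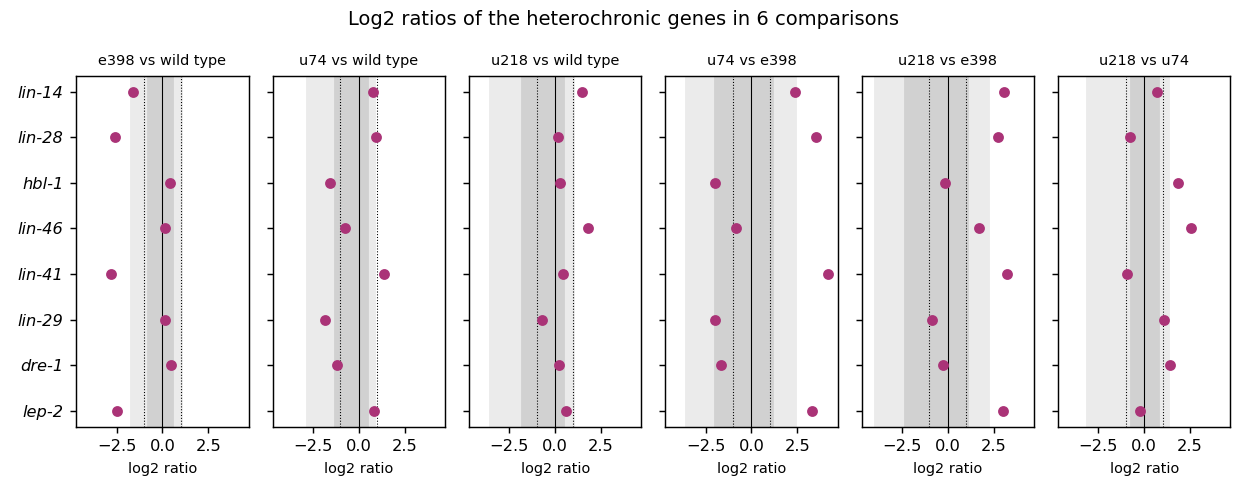
Log2 ratios of averages for the 8 members in the 6 comparisons among genotypes, with dotted lines at the 2-fold limit and grey bands for the 10th to 90th (light) and 25th to 75th (dark) percentiles of all genes considered. The ratios of lin-14, lin-28, lin-41 and lep-2 to wild type are below the lower line in e398, and that of lin-41 is above the upper line in u74.

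Between e398 and either other mutant, more members passed 2-fold than in any comparison with wild type, and so did a larger share of all genes. In u74 against e398, 4 members were at least 2-fold higher and 3 lower, where 65.0% of 17376 genes passed 2-fold, 27.8% higher and 37.2% lower. The log2 ratios were 4.16 for lin-41, 3.52 for lin-28, 3.28 for lep-2 and 2.37 for lin-14, and -1.98 for hbl-1, -1.97 for lin-29 and -1.64 for dre-1. The last 3 were within 2-fold once column totals were made equal, where 48.0% of genes were higher and 23.7% lower. Here lin-46 was the only member whose libraries were resolved in both groups. It did not pass (limma log2 ratio -0.46 ± 0.65, SE, n = 3 each, Benjamini-Hochberg adjusted p = 0.577), in a comparison where 51.6% of 8151 tested genes did. Its u74 libraries all fell within the range of its e398 libraries. The ratio of its averages, -0.87, changed sign to 0.17 without e398 library 2, and to 0.13 with equal column totals.

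In u218 against e398, 5 members were at least 2-fold higher and none was lower, where 67.6% of 17255 genes passed 2-fold, 26.9% higher and 40.7% lower. These were lin-41 (3.22), lin-14 (3.07), lep-2 (3.03), lin-28 (2.76) and lin-46 (1.68). Without e398 library 2 the log2 ratio was 3.99 for lin-41 and 2.72 for lin-46. For lin-29, hbl-1 and dre-1 the log2 ratios of -0.87, -0.14 and -0.25 became 0.01, 0.74 and 0.63 with equal column totals. That scaling put 45.1% of all genes higher and 29.6% lower.

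In u218 against u74, 4 members were at least 2-fold higher and none was lower, where 39.3% of 16279 genes passed 2-fold, 18.7% higher and 20.6% lower. They were lin-46 (2.55), hbl-1 (1.85), dre-1 (1.39) and lin-29 (1.10), and all but lin-29 remained beyond 2-fold with the alternative scalings. With TMM factors lin-29 was at 0.96 and lin-41 at -1.08, and 14.7% of genes were higher and 22.6% lower. No member could be tested in this pair, nor in u218 against e398, because no u218 average of a member could be resolved into single libraries.

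Because a ratio of 2 genes within a column does not depend on the scaling of columns, levels per kb of exon were also compared within genotypes. The ratio of lin-41 to lin-29 per kb was 0.475 in wild type, with e398 at 0.0626, u74 at 4.37 and u218 at 1.06, a 69.8-fold range. The repressor was thus the rarer of these transcripts in wild type and e398 and the more abundant in u74. The ratio of lin-28 to hbl-1 was 2.01, 0.249, 11.4 and 1.86, and that of lep-2 to dre-1 was 0.220, 0.0292, 0.887 and 0.286, in the same order of genotypes. By contrast lin-28 to lin-41 ran only from 0.464 to 0.719, and lep-2 to lin-28 from 0.954 to 1.37. The ratio of hbl-1 to lin-29 was 0.149 in wild type, with e398 at 0.181, u74 at 0.178 and u218 at 0.300.

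The order of levels per kb differed by genotype. In wild type it ran from dre-1 at 3168 normalized counts per kb through lin-29 (2266), lin-41 (1076), lep-2 (696), lin-28 (677), lin-14 (470) and hbl-1 (337) to lin-46 (155). In e398, dre-1 and lin-29 still led at 4338 and 2493, and lin-46, lin-41, lin-14, lep-2 and lin-28 lay together between 112 and 169. The e398 libraries of those 5 genes overlapped in range, with SDs up to 552 normalized counts before division by length. Their order within single libraries was not tested. In u74, lin-41 led at 2787, followed by dre-1 (1392), lin-28 (1294) and lep-2 (1234), with lin-29 below lin-14 at 637. In u218, dre-1 at 3642 was followed by lin-41 (1452), lin-29 (1365) and lin-14 (1299.7), neighbours for which no library spread could be recovered. Across the 4 columns the highest average exceeded the lowest 17.8-fold for lin-41, 11.5-fold for lin-28, 9.68-fold for lep-2, 8.39-fold for lin-14 and 5.85-fold for lin-46. The same range was 3.96-fold for hbl-1, 3.91-fold for lin-29 and 3.12-fold for dre-1, beside a median of 4.7-fold over 17771 genes.

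The genes nearest in pattern to each member were taken by Euclidean distance over the 3 log2 ratios to wild type, among 15347 protein-coding genes averaging at least 50 in some column. For lin-28 they were C17H12.2, ints-1 and T21D12.12, for lin-41 Y52B11A.8, F42A9.8 and psf-2, and for lep-2 rpl-25.2, dlc-1 and M142.5. For lin-14 they were F02A9.7, ptr-13 and rpl-15, and for lin-46 E02H4.4, mtl-2 and fbxa-157. For hbl-1 they were C07B5.3, nsy-4 and ZC168.2, for lin-29 pmt-2, lgc-26 and F59B8.1, and for dre-1 npr-1, syd-1 and nlp-20. All 24 were closer than 0.25 to their member. Among the members themselves the closest pairs were hbl-1 with dre-1 (distance 0.39), lin-28 with lep-2 (0.44) and lin-28 with lin-41 (0.55), and the farthest was lin-41 with lin-29 (4.49). Patterns over 4 averages were shared to differing degrees. Of the 15347 genes, 227 were within 0.5 of dre-1, the most of any member, 113 of lin-28, and 16 of lin-46, the fewest.

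Of 19 other protein genes of the heterochronic pathway and its partners, 3 were at least 2-fold lower and none higher in e398, 8 were lower and none higher in u74, and 5 were higher and 4 lower in u218. Over all genes considered, 19.9% were lower in e398, 29.0% were lower in u74, and 10.4% were higher and 35.8% lower in u218, so the share lower in e398 was near that background. The median log2 ratio of the list was -0.12 for e398, -0.79 for u74 and 0.06 for u218, beside -0.05, -0.07 and -0.26 over all genes. The steroid hormone genes daf-9, daf-12 and din-1 and the nuclear receptor genes nhr-23 and nhr-25 were among the lower genes of u74. The cytochrome P450 gene daf-9, which makes the ligand of DAF-12, averaged 3930 normalized counts in wild type, with e398 at 3841, u74 at 221 and u218 at 984. The moulting receptor nhr-23 averaged 17917 in wild type, with e398 at 16200, u74 at 3625 and u218 at 3777. The receptor gene daf-12 was at 5413, 4989, 2135 and 4266 in the same order, and lin-29's cofactor mab-10 at 4143, 3502, 2029 and 3685. The period homologue lin-42 was highest in u218, at 27335 against 10997 in wild type, and blmp-1, the DRE-1 substrate, was also highest there at 7236 against 2547. The ratio of u218 to wild type was 1.31 on the log2 scale for lin-42 and 1.51 for blmp-1, and 1.75 for nhr-85, a nuclear receptor gene that acts with lin-42 in timing microRNA transcription.

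Where reads of both groups could be recovered, 2 genes of this list were tested. The nhr-85 libraries held 51.1, 166 and 63.1 normalized counts in e398 and 399, 300.1 and 299.7 in u74. The groups did not overlap, and nhr-85 rose (limma log2 ratio 2.01 ± 0.47, SE, n = 3 each, Benjamini-Hochberg adjusted p = 0.00958). The zinc-finger gene ztf-11 held 17.5, 44.4 and 14.7 in e398, 111, 152 and 190.0 in u74, and 267, 252 and 78.3 in u218. It rose in u74 against e398 (limma adjusted p = 0.00386, 2.65 ± 0.50, SE) and in u218 against e398 (limma adjusted p = 0.0193, 2.89 ± 0.72, SE), where 44.5% of 8268 tested genes passed. The second call was lost without u218 library 1 or 2 or without e398 library 1 or 3, at limma adjusted p from 0.0599 to 0.0766. Of the 6 noncoding genes listed only lep-5, a long noncoding RNA that acts with LEP-2 against LIN-28, was matched. It averaged 9686 normalized counts in wild type, with e398 at 4063, u74 at 11630.0 and u218 at 25914. The genes of lin-4, let-7 and the let-7 relatives were not analysed here.

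The outputs of the larval-to-adult switch and other described targets formed a list of 11 genes, of which 2 were lower in e398, 3 higher and 6 lower in u74, and 1 higher and 9 lower in u218. Over all genes 19.9% were lower in e398, 6.47% higher and 29.0% lower in u74, and 10.4% higher and 35.8% lower in u218, and the count of this list lower in e398 was near that share. The median log2 ratio of the list was -0.34 for e398, -1.55 for u74 and -2.62 for u218. The adult cuticle collagen col-19, a direct target of LIN-29, averaged 26368 normalized counts in wild type, with e398 at 15879, u74 at 67364 and u218 at 143. The adult collagen col-7 was at 5588, 3635, 11897 and 40.4 in the same order. The 3 u218 libraries held 88.05, 116 and 225 normalized counts of col-19. Per kb, col-19 stood to lin-29 as 12.5 in wild type, with e398 at 6.83, u74 at 113 and u218 at 0.112. The blister collagen bli-2 averaged 65892, 121294, 8295 and 6527, and the insulin-like gene ins-33 13678, 14542, 140 and 629. Summed yolk genes (6 genes) had the same order of genotypes as col-19, at 455890, 268938, 1156210 and 4556 normalized counts. The genes vit-2 and vit-6 carried most of that sum, while vit-3 (17467, 59396, 33492 and 139) and vit-4 (15851, 33786, 33452 and 138) were higher in e398 than in wild type. Their part was not tested.

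Within this list, egl-43 libraries held 39.4, 78.9 and 44.2 normalized counts in e398 and 418, 275 and 319 in u74, without overlap. This transcription factor gene of the gonadal anchor cell rose (limma log2 ratio 2.66 ± 0.38, SE, n = 3 each, Benjamini-Hochberg adjusted p = 0.00124). The nuclear receptor gene nhr-67, also needed in that cell, held 551, 1219 and 582 in e398 and 93.9, 64.4 and 49.4 in u74, and fell (limma adjusted p = 0.000722, -3.43 ± 0.42, SE). The male tail tip gene dmd-3 held 62.8, 297 and 37.8 in e398, 9.24, 9.48 and 4.80 in u74, and 42.8, 27.9 and 47.0 in u218. It fell in u74 against e398 (limma adjusted p = 0.00842, -3.40 ± 0.78, SE). It rose in u218 against u74 (limma adjusted p = 0.0177, 2.20 ± 0.47, SE), where 29.2% of 7125 tested genes passed, but not without u218 library 1 or any single u74 library (0.0566 to 0.0705).

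**Figure D4:**
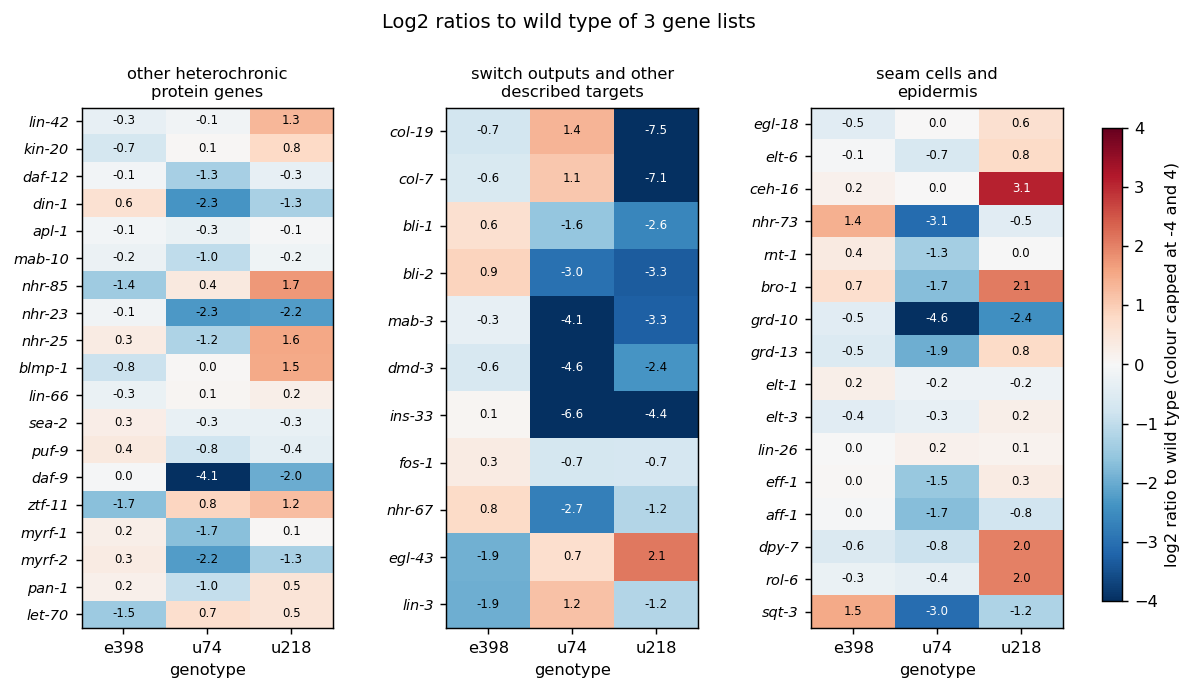
Log2 ratios of averages to wild type for other heterochronic protein genes, switch outputs and described targets, and seam cell and epidermis genes (colour capped at -4 and 4, ratio printed in each cell). The u218 cells of col-19 and col-7 read -7.5 and -7.1, while daf-9 and ins-33 are lowest in u74.

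Genes of the seam cells and epidermis, the tissue in which the switch takes place, were counted for 15 or 16 genes that passed the filter. Of these, 2 were higher and none lower in e398, none higher and 8 lower in u74, and 4 higher and 2 lower in u218. Over all genes 11.4% were higher in e398, 29.0% were lower in u74, and 10.4% were higher and 35.8% lower in u218, and the count higher in e398 was near that share. The median log2 ratio of the list was -0.05, -1.35 and 0.27 for e398, u74 and u218. The hedgehog-related seam gene grd-10 averaged 18086 normalized counts in wild type, with e398 at 13148, u74 at 761 and u218 at 3329. The cell fusion gene eff-1 averaged 1763, 1803, 616 and 2201, and the related fusion gene aff-1 928, 897, 286 and 549. Libraries of aff-1 overlapped in every pair of mutants, and it passed neither in u74 against e398 (limma adjusted p = 0.085) nor in u218 against e398 (0.455) or u74 (0.428). The CBFβ homologue bro-1, which with the Runx factor rnt-1 promotes seam cell divisions, held 86.2, 177 and 63.1 normalized counts in e398, 24.6, 13.9 and 21.9 in u74, and 310, 355 and 193 in u218. It fell in u74 against e398 (limma log2 ratio -2.28 ± 0.50, SE, n = 3 each, adjusted p = 0.00729) and rose in u218 against u74 (limma adjusted p = 0.00219, 3.75 ± 0.40, SE). In u218 against e398 bro-1 did not pass (limma adjusted p = 0.0506). The seam gene nhr-73 rose from 70.8, 41.7 and 32.2 in u74 to 299, 381 and 231 in u218 (limma adjusted p = 0.0057, 2.68 ± 0.39, SE).

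Calls of 2 further epidermal genes depended on the setting. The Runx gene rnt-1 fell in u74 against e398 (limma adjusted p = 0.00474) but not with TMM factors (0.0595). It rose in u218 against u74 (limma adjusted p = 0.0369), and this call was lost with TMM factors, with no filter on low means, and without u218 library 1 or 2 or any u74 library (0.0656 to 0.198). The GATA factor gene elt-6 rose in u218 against u74 (limma adjusted p = 0.0203), a call lost with TMM factors and without u218 library 1 or 2 or any u74 library (0.0601 to 0.147). The engrailed homologue ceh-16 held 125, 120 and 13.2 normalized counts in u218 and 10.3, 11.4 and 6.86 in u74. It did not pass (limma adjusted p = 0.0732), and without u218 library 3 it did (limma adjusted p = 4.16e-05).

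Of 16 genes of the microRNA machinery, 2 were lower in e398, 2 higher in u74 and 2 lower in u218. Over all genes 19.9% were lower in e398, 6.47% higher in u74 and 35.8% lower in u218. The median log2 ratio of this list was -0.04, 0.20 and -0.24 in e398, u74 and u218. The same genes made up these counts each time: pup-2, a poly(U) polymerase that acts with LIN-28 on let-7 precursors, and cgh-1, a DEAD-box helicase that is abundant in the germline. In the order wild type, e398, u74 and u218, pup-2 averaged 5953, 2675, 12419 and 2817 normalized counts, and cgh-1 40862, 17884, 85552 and 12234. The Argonautes of the microRNA pathway, alg-1 and alg-2, were within 2-fold of wild type in every mutant. Of 5 partners of the SCF ligase, 3 were lower in e398 (skr-2, rbx-1 and ned-8, with log2 ratios of -2.43, -2.60 and -2.83), 1 was higher in u74 (skr-2 at 1.03) and none passed 2-fold in u218, while the cullin gene cul-1 was within 2-fold in each. Over all genes considered, 6.47% were higher in u74, and 46.3% passed 2-fold in either direction in u218. All 3 genes lower in e398 are short, with 422 to 758 bp of exons, and 33.9% of protein-coding genes under 1000 bp were lower in e398, beside 19.9% of all genes.

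**Figure D5:**
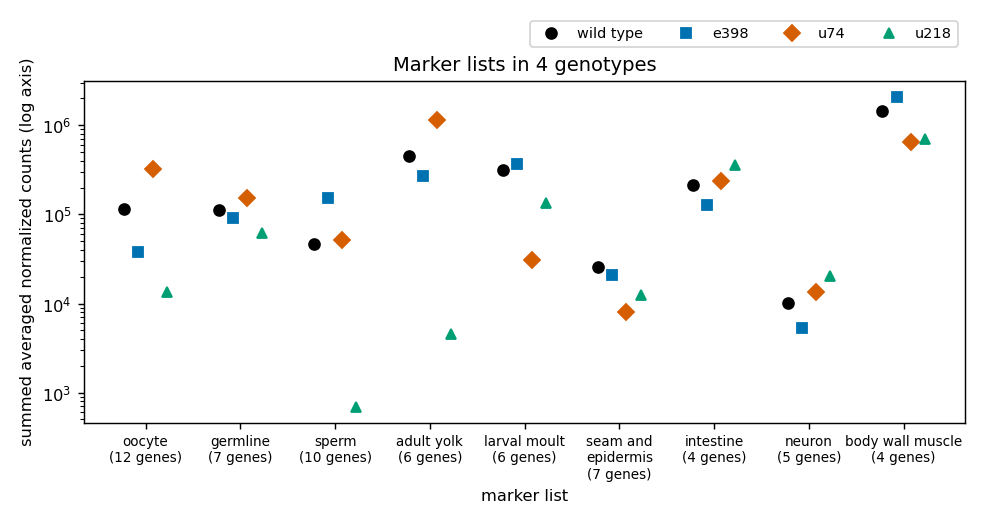
Summed averages in normalized counts (log axis) of marker lists for germline, oocyte, sperm, yolk, moult and body tissues in the 4 genotypes. The oocyte sum is highest in u74 at 325647 and lowest in u218 at 13387, and the moult sum is lowest in u74 at 31130.

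The marker sums give the tissue context of these levels. Germline markers (7 genes) summed to 111985 normalized counts in wild type, with e398 at 90838, u74 at 154626 and u218 at 62103. The helicase gene glh-1 took much of this, and without it the other 6 summed to 52157, 18331, 104521 and 29618. Seam and epidermis markers (7 genes) summed to 25733, 20651, 8087 and 12362 in the same order, but grd-10 carried the differences of the sum. Without it the other 6 summed to 7647, 7503, 7326 and 9033, mostly lin-26 and elt-3. That sum hides less abundant markers that differed: nhr-73 averaged 416, 1120, 48.3 and 304, and ceh-16 9.31, 10.6, 9.50 and 86.1. Moult markers summed to 314130, 370705, 31130 and 135644, and sperm markers to 46464, 153139, 51578 and 690. Neuron markers (5 genes) summed to 10103, 5252, 13423 and 20223. Per kb, the ratio of lin-41 to rme-2, the yolk receptor gene of oocytes, was 0.259 in wild type, with e398 at 0.0416, u74 at 0.291 and u218 at 3.47. Of the 12 oocyte markers, rme-2 was the least changed in e398, at a log2 ratio to wild type of -0.15. The median of that list was -2.31 and lin-41 was at -2.78, so the ratio to rme-2 does not stand for the other oocyte markers. No listed marker was at 0 in any column, and their part in the members' levels was not tested.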

How the data were processed

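The deposited table holds a signal for 46926 genes and 4 genotypes, averaged normalized counts per the file's name. Per the submitters' processing notes, DESeq2, DESeq, HTSeq and bedtools were used, with no version named. The sources used here give no aligner, genome build or strand setting, so reads of genes overlapping on opposite strands cannot be told apart. Gene positions are from WBcel235. The 8 members and all gene lists were chosen with earlier results of these data known. All 8 members are named in every comparison, and of the lists any gene averaging at least 20 in some column could be named; 131 of 137 list genes were matched by symbol.

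Whole reads were recovered in the mutant columns, where an average is a sum of whole reads times 1 weight per library. Values under 1000 with at most 2 solutions expected by chance were searched. Members under 1000 were searched beyond that limit, and those with several solutions (hbl-1 in u74, lin-46 in u218) are given with each of them and were not tested. The sums without single markers or libraries were added after seeing the data. Exactly 1 solution was found for 96.5% of 19319 values in e398, 99.0% of 14491 in u74 and 96.9% of 15761 in u218. Of values shifted at random as a check, 5.1%, 17.4% and 16.4% could be solved. The range of this search and the leaving out of single libraries from averages were chosen after seeing the data. Genes resolved in both groups with a mean of at least 5 were tested with limma 3.58.1 (trend, 2-sided) in R 4.3.3 on log2(normalized count + 1), and called at Benjamini-Hochberg adjusted p under 0.05 over all genes tested. Only low values can be resolved, so these genes are not a random share of the table. Wild-type averages of the members could not be resolved into 6 libraries. The limma tests against wild type were planned but not run, and the log2 ratios of averages stand without a test. The labels do not say whether libraries came from separate cultures, so p-values measure only the spread between these samples, which may be technical. The steps were tested on simulated data. Alternatives were other pseudocounts, filters, scalings and fold limits, voom, and leaving out each recovered library.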

Additional observations from a re-analysis of the deposited data

How the results depend on the processing

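Of the counts of members, 56 recomputed values stayed within 1.5 times the reported count and 3 did not, though the total hides a change of direction in u74 against wild type: 1 higher and 3 lower became 4 higher and 1 lower with equal column totals. Part of the 56 could not differ. The lowest average of a member was 126 normalized counts (lin-46 in u74), so the filters tried, at most 100, could drop none. Other pseudocounts hardly move such averages, and the limma counts among the 56 rest on lin-46 alone. With a 1.5-fold limit, 8 members passed in u74 against wild type (4 higher, 4 lower) and 7 in u218 against u74 (5 higher, 2 lower), since a lower limit admits more genes. The share of all genes past 1.5-fold is not given here, so these 2 counts are not a result about the members. With equal column totals, 4 passed in u74 against e398 (4 higher, 0 lower), since that scaling moved the median of all ratios from -0.20 to 0.90. It moved that median from -0.05 to -0.45 in e398 against wild type, where 5.85% of genes were then higher and 29.7% lower, and from -0.07 to 0.58 in u74, where 31.6% were higher and 20.5% lower. In u218 against wild type it moved from -0.26 to 0.26, with 25.1% higher and 28.3% lower. The count of tested members called by limma in u74 against e398 was 0, with lin-46 alone tested and its unadjusted p = 0.497 (limma), under every alternative including voom, and from 0 to 0 over the left-out libraries. Of other ratios of averages, 360 moved by less than the spread used and 30 by more. The 360 include the changed filters, which leave the ratio of a member as it is. Of limma ratios, 303 kept their side of the threshold, 16 passed it only under an alternative and 22 lost it. No paired analysis was possible because the deposited columns carry no replicate numbers and the recovered libraries cannot be tied to numbered samples. Also not run were limma against wild type and its subsets of 3 wild-type libraries. The recovery was limited by the number of whole-read solutions, which grows with the average and with the number of libraries. Values were searched up to 999.6 normalized counts in e398, 453.8 in u74 and 558.9 in u218, and no wild-type average of a member could be resolved, lin-46 at 212 included.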
